A study of Drosophila melanogaster with 73 samples.

Results

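Mitochondria keep their own ribosome, the mitoribosome, which translates the few messages of the mitochondrial genome into core subunits of the respiratory chain. Its ribosomal RNAs come from mitochondrial DNA, but its proteins are encoded in the nucleus, made in the cytosol and imported, so that the organelle's protein synthesis depends on many nuclear genes being expressed together. In flies, mutants of the mitoribosomal gene tko are bang-sensitive and slow to develop, and those of bonsai grow poorly. The genes described here are those whose symbols start with mRpL or mRpS followed by a number. Of 73 such symbols, 72 were counted in both tissues, among 10366 gut genes and 11069 fat body genes, and mRpS5 was not analysed here. They comprise 47 proteins of the large subunit (mRpL), which joins amino acids into a chain, and 25 of the small subunit (mRpS), which reads the message.

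The libraries came from adult female Drosophila carrying the S106 GeneSwitch driver, which is active in gut and fat body when flies eat the inducer RU486. The driver was combined with UAS transgenes for foxo (the transcription factor restrained by insulin signalling), aopACT (from the ETS repressor aop, made constitutively active) and pntP1 (from the ETS activator pnt). All 7 genotypes that hold at least 1 of the 3 transgenes were sampled: Foxo, AopACT, PntP1, Foxo+AopACT, Foxo+PntP1, AopACT+PntP1 and Foxo+AopACT+PntP1. Induced flies had fed on 200 µM RU486 for 6 days after 48 h of mating, and uninduced flies of the same genotype had the same driver and transgenes but no RU486. All were in the outbred Dahomey background with the w1118 mutation. Because no genotype lacked all transgenes, an effect of RU486 itself cannot be told apart from that of a transgene within 1 genotype. Each library was made from pooled guts or from abdominal fat bodies, the carcass without gut and reproductive organs, so p-values measure the spread between pools.

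There were 36 gut libraries (17 induced, 19 uninduced) with between 1598120 and 6145550 counts, and 34 fat body libraries (18 induced, 16 uninduced) with between 1138812 and 8257766 counts. Groups held 2 or 3 libraries, except that gut Foxo+PntP1 had 1 uninduced library. A mitoribosomal gene had a median of 58 counts per gut library and 54 per fat body library, so single values carry a visible counting error. Enterocyte markers summed to between 5652 and 35421 CPM (counts scaled to library size) in guts, and between 1284 and 3247 CPM in fat bodies. In fat bodies most of that sum was Vha16-1, at between 1166 and 2277 CPM. The other enterocyte markers there had medians from 0.423 CPM (nub) to 33.4 CPM (Myo31DF). Fat body markers summed to between 329 and 2883 CPM in guts, and between 67233 and 336243 CPM in fat bodies, although Lsp2 was at 0 in 5 fat body libraries. Ovary and follicle markers summed to between 1.45 and 795 CPM in guts, and between 25.1 and 3477 CPM in fat bodies, where 9 of 9 were detected. Transcripts of the mitochondrial genome took 24.9% of the counts in 2 gut libraries, against a gut median of 6.80%. The fat body library labelled uninduced Foxo+PntP1 replicate 1 went against its label, with 114.8 CPM of pnt, against 59.0 and 89.3 CPM in the induced and 15.4 and 22.0 CPM in the other uninduced libraries of that genotype, and results of that group were also computed without it. In bulk libraries of this kind, fewer cells of a type and less RNA per cell cannot be told apart.

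The 72 genes lie on every major chromosome arm: 12 on 2L, 12 on 2R, 16 on 3L, 21 on 3R and 11 on X (BDGP6 annotation). They are short, with a summed exon length between 327 bases for mRpL34 and 2078 bases for mRpS30 and a median of 783. By their numbers, 41 carry the name of a bacterial ribosomal protein, and 31 carry a higher number given to proteins found in mitochondrial ribosomes, although some of these, mRpL47 and mRpS24 among them, also have a bacterial relative under another number. Exons of 10 of the genes (mRpL13, mRpL17, mRpL35, mRpL48, mRpL53, mRpS14, mRpS18C, mRpS21, mRpS24 and mRpS9) overlap those of another gene over more than 10% of their bases. Use of strand in counting is not given in the sources, and the levels of these 10 are therefore uncertain. All 72 passed the filter on low counts in each fit.

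The messages of the 72 genes were not equally abundant. Per kilobase of exon, levels in the 19 uninduced guts ranged from 8.38 to 83.2 CPM, a 9.92-fold range with a median of 28.4 CPM per kb. The most abundant were mRpL35 (83.2), mRpL53 (80.4, all of its exon bases overlapped by other genes), mRpL28 (78.3) and mRpS7 (68.9 CPM per kb). The scarcest were mRpL2 (11.4), which lies near the peptidyl transferase centre in bacteria, mRpL38 (10.1) and mRpL21 (8.38 CPM per kb). Neighbours such as mRpL35 and mRpL53 were close in level: before division by length, mRpL35 averaged 62.5 CPM with an SD of 14.8 (n = 19). This relative spread was wider than the gap between the pair, but it is a spread across libraries. A difference between the genes within libraries was not tested. The range was much the same in the 16 uninduced fat bodies, from 6.75 to 56.5 CPM per kb with a median of 19.9. There the most abundant were mRpL53 (56.5), mRpL12 (50.0), which forms the stalk that recruits translation factors, mRpS9 (46.6) and mRpL30 (46.6 CPM per kb). The scarcest were mRpL38 (9.41), mRpL48 (9.09) and mRpL21 (6.75 CPM per kb), so that mRpL38 and mRpL21 were near the bottom in both tissues. The balance of the subunits was close to constant. The summed CPM of large-subunit genes over that of small-subunit genes lay between 1.72 and 2.09 in all 36 gut libraries (median 1.88) and between 1.70 and 2.09 in all 34 fat body libraries (median 1.82).

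The clearest difference was between the tissues, as a shift relative to other genes. Among uninduced flies and with TMM scaling, which levels libraries by the bulk of their genes, 56 of the 72 genes were higher in gut than in fat body and 0 were lower (edgeR's quasi-likelihood test across both tissues, Benjamini-Hochberg adjusted p under 0.1). Across all 9313 genes tested, 33.9% were called higher in gut and 41.6% lower, so a large share of called genes was usual in this comparison, but not their direction. At an unadjusted p under 0.05, 53 of the 72 passed (73.6%), against 72.8% of all genes. Of 72 log2 fold changes 69 were positive, with a median of 0.46 against -0.10 over all genes. They ranged from -0.10 for mRpL39 to 1.27 for mRpL51. DESeq2 called 54 (75%) and limma voom 56 (77.8%), against 76.1% and 78.3% of all genes. The other processing choices of that kind called between 53 and 58, against between 72.2% and 75.7% of all genes. Leaving out single libraries gave between 51 and 62, against between 73.2% and 75.7% of all genes. All of these settings level libraries by the bulk of their genes. When each library was instead scaled to its total count, a choice made after seeing the data, 9 genes were called higher in gut and 7 lower (edgeR), against 21.9% and 57.7% of all genes. The median was then 0.06 and that of all genes -0.51, and 41 of 72 log2 fold changes were positive. Relative to the median of all genes the shift was 0.56 with TMM and 0.57 with library totals. A change of scale moves all genes by nearly the same amount, so these values were bound to be close and are not separate support. The direction of many single genes depended on the scaling.

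The gene with the largest difference was mRpL51, a large-subunit protein (2L, 8516753 to 8517380, minus strand). Its level was between 19.1 and 58.5 CPM in guts with a median of 26.9, and between 7.21 and 19.9 CPM in fat bodies with a median of 11.6. The ranges of the tissues met only at their edges, and the log2 fold change was 1.27 ± 0.15 (SE, edgeR adjusted p = 1.33e-08). For mRpS6, a small-subunit protein with a bacterial counterpart, levels were between 16.2 and 51.4 CPM in guts (median 31.7) and between 5.22 and 21.7 CPM in fat bodies (median 14.7). Its log2 fold change was 1.18 ± 0.17 (edgeR adjusted p = 2.84e-07). The difference for mRpL35 was 1.01 ± 0.12 (edgeR adjusted p = 2.04e-08), with levels between 43.2 and 90.01 CPM in guts and between 18.1 and 43.4 CPM in fat bodies. The small-subunit genes mRpS25 (0.98 ± 0.15) and mRpS33 (0.92 ± 0.21) followed, with edgeR adjusted p of 1.46e-06 and 2.32e-04. Among the lowest p-values were also mRpL28 (0.83 ± 0.11) and mRpL24 (0.84 ± 0.14). With library totals the differences were 0.83 ± 0.17 for mRpL51, 0.74 ± 0.18 for mRpS6, 0.58 ± 0.13 for mRpL35, 0.54 ± 0.17 for mRpS25 and 0.50 ± 0.20 for mRpS33, and each of these stayed called by edgeR. With TMM no gene was entirely separate between the tissues, since 0 of 72 had every gut library above every fat body library, against 11.9% of all genes.

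The smallest called differences were those of mRpS23 (0.25), mRpL12 (0.26), mRpS26 (0.27), mRpL30 (0.27) and mRpL2 (0.31 on the log2 scale). Except for mRpS26, with an edgeR adjusted p of 0.02, these sat at the edge of the threshold, with edgeR adjusted p of 0.0847 for mRpS23, 0.0982 for mRpL12, 0.0676 for mRpL30 and 0.0916 for mRpL2. Their calls ended under several alternatives, for mRpL2 at an adjusted p of 0.233 without uninduced gut AopACT+PntP1 replicate 3. With library totals all 5 were lower in gut, from -0.20 for mRpL12 to -0.05 for mRpL2. At the other end, mRpL39 averaged 26.9 ± 6.58 CPM in guts (n = 19) and 28.6 ± 10.3 CPM in fat bodies (n = 16, SD) with TMM, while its log2 fold change was -0.55 ± 0.17 with library totals.

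**Figure D1:**
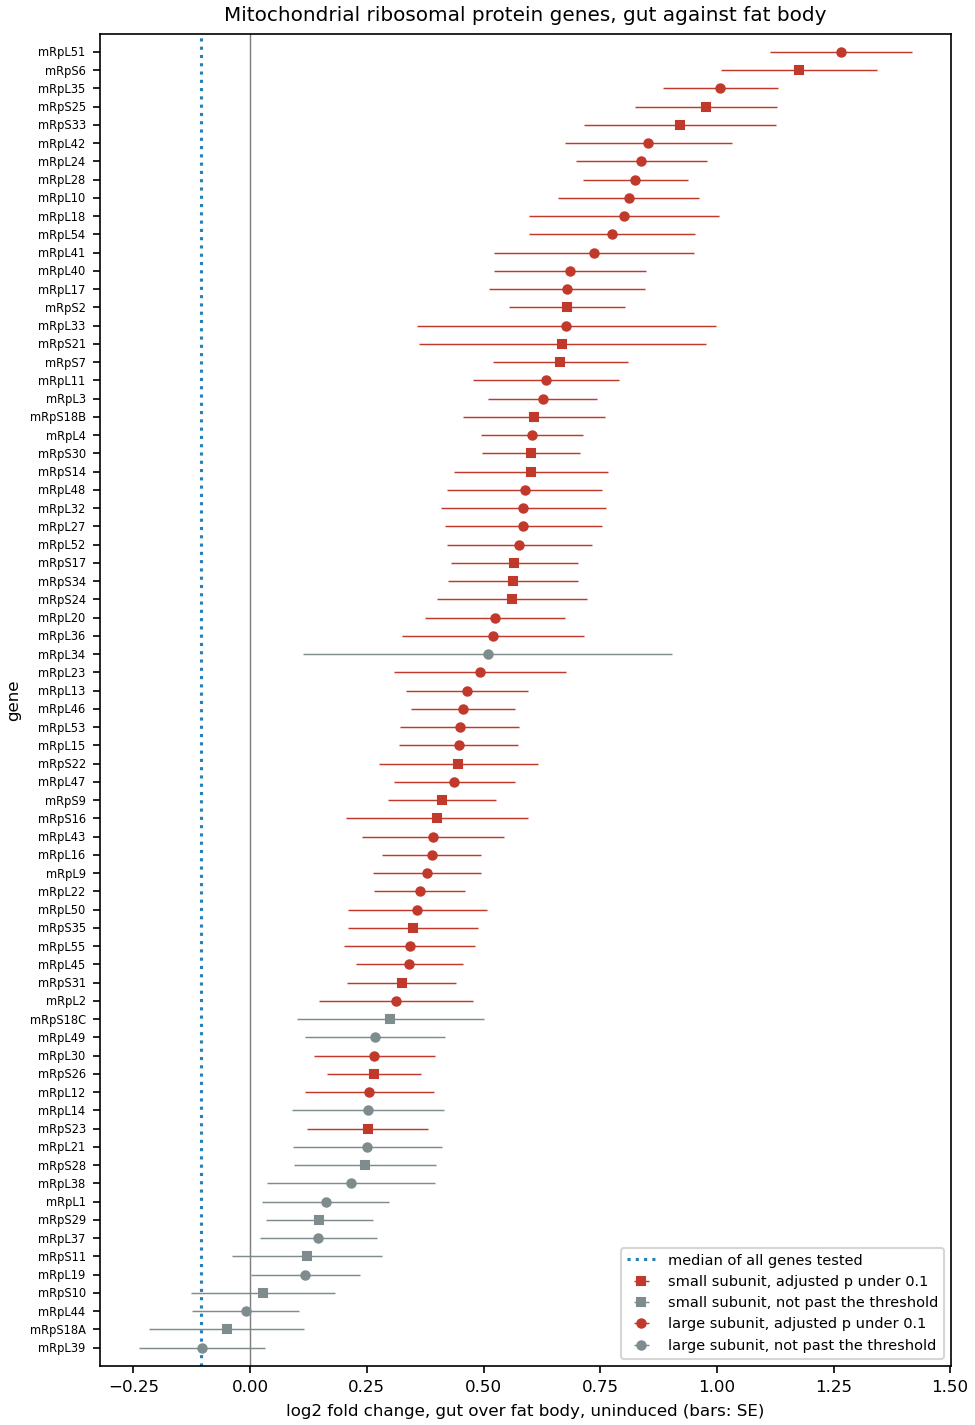
Log2 fold change of each of the 72 genes, uninduced gut over uninduced fat body, with its standard error as a bar and the median of all genes tested as a dotted line. With the TMM scaling plotted, all but 3 of the points lie to the right of 0, between -0.10 for mRpL39 and 1.27 for mRpL51, whereas with library totals 41 of 72 were positive.

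Both subunits took part with TMM, with 19 of 25 small-subunit genes called (median 0.45) and 37 of 47 large-subunit genes (median 0.46). Genes with a bacterial number were called in 32 of 41 cases (median 0.52), those with a higher number in 24 of 31 (median 0.44). Summed over the 72 genes and scaled across both tissues, the level was between 1512 and 2997 CPM in guts (mean 2034.9 ± 417, SD, n = 19) and between 1087 and 1939 CPM in fat bodies (mean 1403 ± 252, n = 16). The ratio of these means was 1.45. It differed between genotypes, from 1.04 in AopACT+PntP1 flies, where uninduced fat bodies averaged 1672 CPM, to 1.68 in Foxo+PntP1 flies. The ratio of 1.68 rested on 1 gut library and 3 fat body libraries, among them the one whose pnt went against its label. Scaled to library totals, the sums averaged 1771 ± 274 CPM in guts and 1682 ± 531 CPM in fat bodies, a ratio of 1.05, and with the mitochondrially encoded genes also left out of the totals 1938 ± 375 CPM in guts and 1817 ± 579 CPM in fat bodies, a ratio of 1.07. On both of these scales the sum was higher in gut in 6 of 7 genotypes and lower in AopACT+PntP1 flies, where the ratio was 0.668 with library totals (1607 CPM in guts, 2404 CPM in fat bodies) and 0.682 with the mitochondrially encoded genes left out. By TMM-scaled genotype means, 33 genes were higher in gut in 7 of 7 genotypes and 27 in 6 of 7. Without the 10 genes that overlap others, 47 of 62 were called and the median was 0.45. The 2 mitoribosomal genes with other names went the same way: tko, the decoding-centre protein mRpS12, was 0.85 ± 0.15 higher in gut and bonsai (mRpS15) 0.44 ± 0.11 (edgeR adjusted p = 5.85e-06 and 0.00109). With library totals tko was 0.42 ± 0.16 and bonsai -0.01 ± 0.14.

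Related gene lists leaned towards the gut to different degrees or not at all, with TMM. Nuclear genes of the respiratory chain, which work beside the mitochondrially made subunits, were called higher in gut in 58 of 68 cases and lower in 2, with a median of 0.74, and with library totals in 42 and 4 with a median of 0.34. Cytosolic ribosomal proteins were called higher in 42 of 85 and lower in 2, with a median of 0.31, but with library totals 0 were called higher and 28 lower, with a median of -0.09. Among mitochondrial translation factors, which act on the same ribosome, 2 of 8 were called higher and 1 lower. The elongation factor mEFTu1 was 0.53 higher in gut (0.18 and not called with library totals), while mEFG1, which moves the ribosome along the message, was lower by this measure (log2 fold change -0.33, edgeR adjusted p = 0.00951). Mitochondrial aminoacyl-tRNA synthetases, which load tRNAs with amino acids, were called higher in 4 of 16 and lower in 3. Of the regulators, 2 that are linked to mitochondrial genes were lower in gut. Ets97D, the fly homologue of the nuclear respiratory factor 2 alpha subunit and itself an ETS factor, had a log2 fold change of -0.73 ± 0.16, and srl, the PGC-1 homologue, of -1.18 ± 0.20 (edgeR adjusted p = 2.28e-04 and 7.21e-06), and with library totals of -1.19 and -1.69.

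Induction of the transgenes gave no call for any of the 72 genes in any genotype, in the gut or in the fat body (edgeR, adjusted p under 0.1). The background share of called genes was low in most of these comparisons. In the gut it was 0.507% of genes for Foxo, 0.291% for AopACT, 3.04% for PntP1, 2.13% for Foxo+AopACT, 2.79% for Foxo+PntP1, 0.787% for AopACT+PntP1 and 1.64% for Foxo+AopACT+PntP1. Fat body shares were 0% for Foxo, 0.411% for AopACT, 0.0103% for PntP1, 0.0308% for Foxo+AopACT, 0% for Foxo+PntP1, 0.123% for AopACT+PntP1 and 0.0103% for Foxo+AopACT+PntP1. Among 72 genes, such shares would leave few calls or none. Of simulated log2 changes of 1, up or down, edgeR called 11% in gut Foxo+AopACT and 1% in fat body AopACT+PntP1. A count of 0 therefore does not show a lack of change. The fold changes are given as values on the TMM scale, with the counts at an unadjusted p under 0.05 beside the share of all genes. With library totals, again 0 of 72 were called by edgeR in each genotype and tissue. The share of all genes called was then between 0.324% (AopACT) and 6.06% (PntP1) in the gut. In the fat body it was between 0% (Foxo and Foxo+PntP1) and 0.524% (AopACT).

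**Figure D2:**
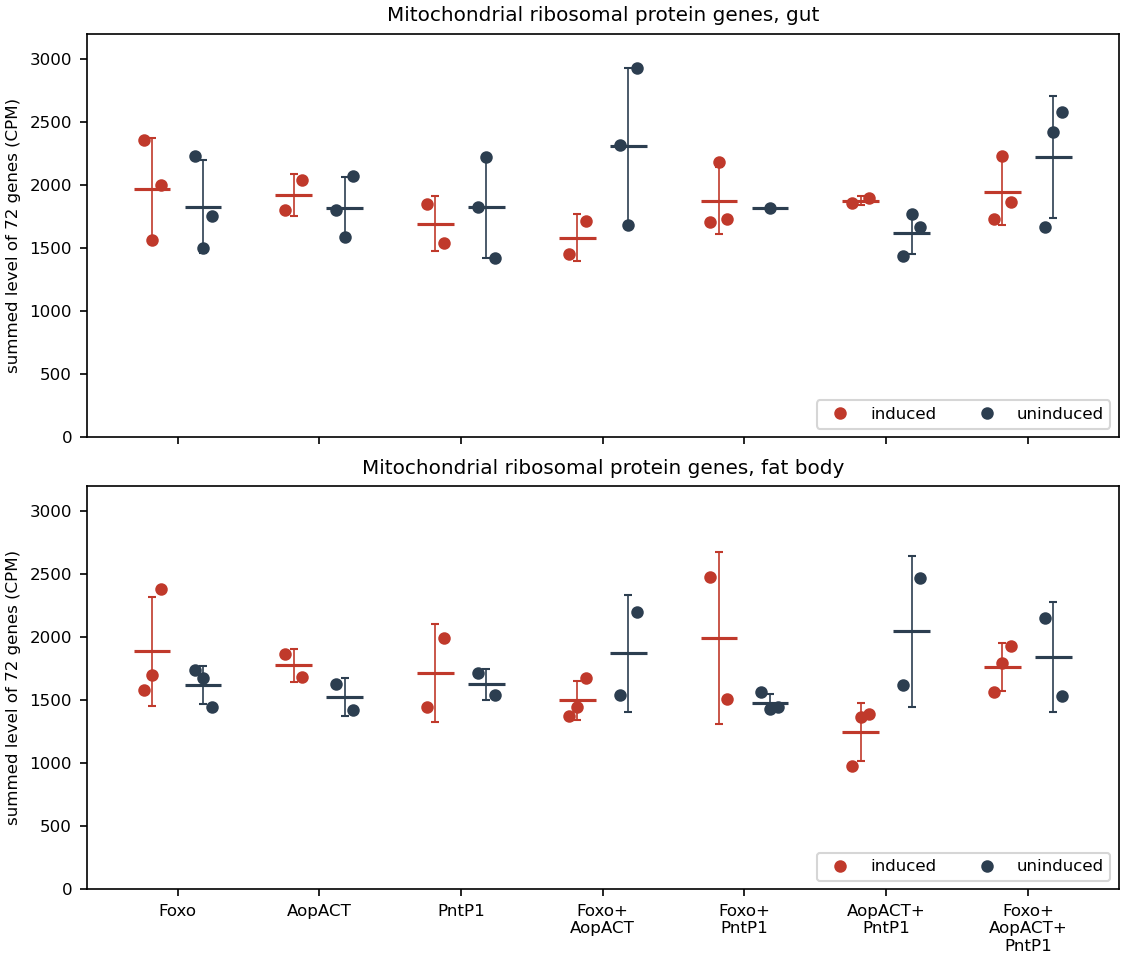
Summed CPM of the 72 genes in each library, by genotype, induced left of uninduced, with gut and fat body in separate panels and a line at each group mean. Induced Foxo+AopACT guts lie at 1453 and 1713 CPM against 2317, 1686 and 2928 CPM in uninduced guts, and induced AopACT+PntP1 fat bodies lie at 980, 1365 and 1391 CPM against 1625 and 2469 CPM.

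In the gut, the genotype in which the genes stood furthest from the rest was Foxo+AopACT. Of 72 log2 fold changes 66 were negative, with a median of -0.63 against -0.10 over all genes, and 20 genes (27.8%) had an unadjusted p under 0.05, against 15.2% of all genes. The number called was 0 with edgeR, 1 with DESeq2 (mRpL47, adjusted p = 0.0864), which called 5.38% of all genes, and 41 (56.9%) with limma voom and quality weights, which called 35.5% of all genes. With library totals the median was -0.18 against 0.31 over all genes, and 1 gene had an unadjusted p under 0.05. The shift relative to all genes was -0.52 with TMM and -0.49 with library totals, values that a change of scale is bound to leave close. Lowest in p was mRpL47, a large-subunit protein (3R, 9514822 to 9515908, minus strand). Its level was 15.6 and 17.5 CPM in induced guts, against 26.7, 23.5 and 39.7 CPM in uninduced guts. The groups did not overlap, and the log2 fold change was -0.85 ± 0.27 (edgeR adjusted p = 0.122). For mRpL23, a protein at the mouth of the exit tunnel in bacteria, induced guts had 15.9 and 17.5 CPM, against 56.0, 22.3 and 48.2 CPM in uninduced guts. Here uninduced replicate 2 lay close to the induced libraries, and the log2 fold change was -1.30 ± 0.47 (edgeR adjusted p = 0.188).

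The same library recurred in the sums. Over all 72 genes, induced Foxo+AopACT guts had 1453 and 1713 CPM, against 2317, 1686 and 2928 CPM in uninduced guts, so that replicate 2 fell among the induced values. The ratio of the means was 0.685, and it was 0.627 within block A and 0.585 within block D. In 25 of 72 genes every induced library was below every uninduced one, against 18.7% of all genes. Without uninduced replicate 2, 5 genes were called (mRpL47, mRpL23, mRpS6, mRpL12 and mRpS11, edgeR), a share of 6.94% against 6.24% of all genes, and without uninduced replicate 3 the median was -0.36. The fold changes also went with transcript length, with a median of -0.74 for the 37 shorter and -0.49 for the 35 longer genes. Respiratory chain genes had a median of -0.77 in this comparison with 4 of 68 called lower, among them SdhC (-1.13 ± 0.27, edgeR adjusted p = 0.0356). Cytosolic ribosomal proteins had a median of -0.88 with 13 of 85 called lower, while mitochondrial translation factors had a median of 0.25 and tRNA synthetases of 0.05, with 0 called. With library totals 1 respiratory chain gene and 0 cytosolic ribosomal proteins were called lower. Ovary and follicle markers summed to 14.1 and 69.2 CPM in induced guts, against between 8.10 and 795 CPM in uninduced guts, with 8 of 9 log2 fold changes negative and a median of -2.40 (0 called). Oenocyte markers had 4 of 4 positive, with a median of 1.02 (0 called). The part of these cells in the shift was not tested. Over all 36 guts, the summed log2 level of the mitoribosomal genes had a Pearson r of -0.342 and a Spearman rho of -0.356 with that of the enterocyte markers. Within blocks r was 0.251 in A, -0.702 in C and -0.382 in D, and it was -0.298 without the 2 libraries furthest from the median.

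In the fat body the largest shift was in AopACT+PntP1 flies, where all but 3 of the 72 genes had a negative log2 fold change. The median was -0.84 against -0.03 over all genes, and 42 genes (58.3%) had an unadjusted p under 0.05, against 23.2% of all genes. The number called was 0 with edgeR, 15 (20.8%) with DESeq2, which called 10.4% of all genes, and 0 with limma voom. With library totals the median was -1.26 against -0.44 over all genes. The shift relative to all genes was then -0.82, against -0.81 with TMM, values that a change of scale is bound to leave close. For mRpL39, a large-subunit protein (3L, 14997981 to 14999666, minus strand), induced fat bodies had 20.1, 29.0 and 21.6 CPM, against 37.6 and 74.9 CPM in uninduced fat bodies. Its log2 fold change was -1.28 ± 0.30 (edgeR adjusted p = 0.132). For mRpL37, which like mRpL39 belongs to the large subunit (3R, 10782563 to 10784092, minus strand), induced fat bodies had 14.1, 18.3 and 17.2 CPM, against 34.8 and 51.7 CPM in uninduced fat bodies. The groups were apart for both genes, and the log2 fold change of mRpL37 was -1.47 ± 0.35 (edgeR adjusted p = 0.133).

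Non-overlap was common in this comparison: in 47 of 72 genes every induced library was below every uninduced one, against 19.9% of all genes. The summed level was 980, 1365 and 1391 CPM in induced and 1625 and 2469 CPM in uninduced fat bodies, a ratio of 0.608 between the means, and of 0.603 within block A and 0.563 within block D. Small-subunit genes had a median of -0.81 and large-subunit genes of -0.85. The result leaned on few libraries, as the median was -0.52 without uninduced replicate 2 and -0.97 without uninduced replicate 1. Between 8 and 14 genes were called without 1 of the 4 uninduced libraries of the AopACT or Foxo+AopACT genotypes, 8 without AopACT replicate 1, 14 without AopACT replicate 2, 14 without Foxo+AopACT replicate 1 and 12 without Foxo+AopACT replicate 2. In the same order these fits called 3.72%, 5.74%, 6.08% and 5.52% of all genes, against 11.1%, 19.4%, 19.4% and 16.7% of the 72. None of these 4 libraries belongs to the AopACT+PntP1 genotype, which shares its estimates of spread and block with them in the fit.

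**Figure D3:**
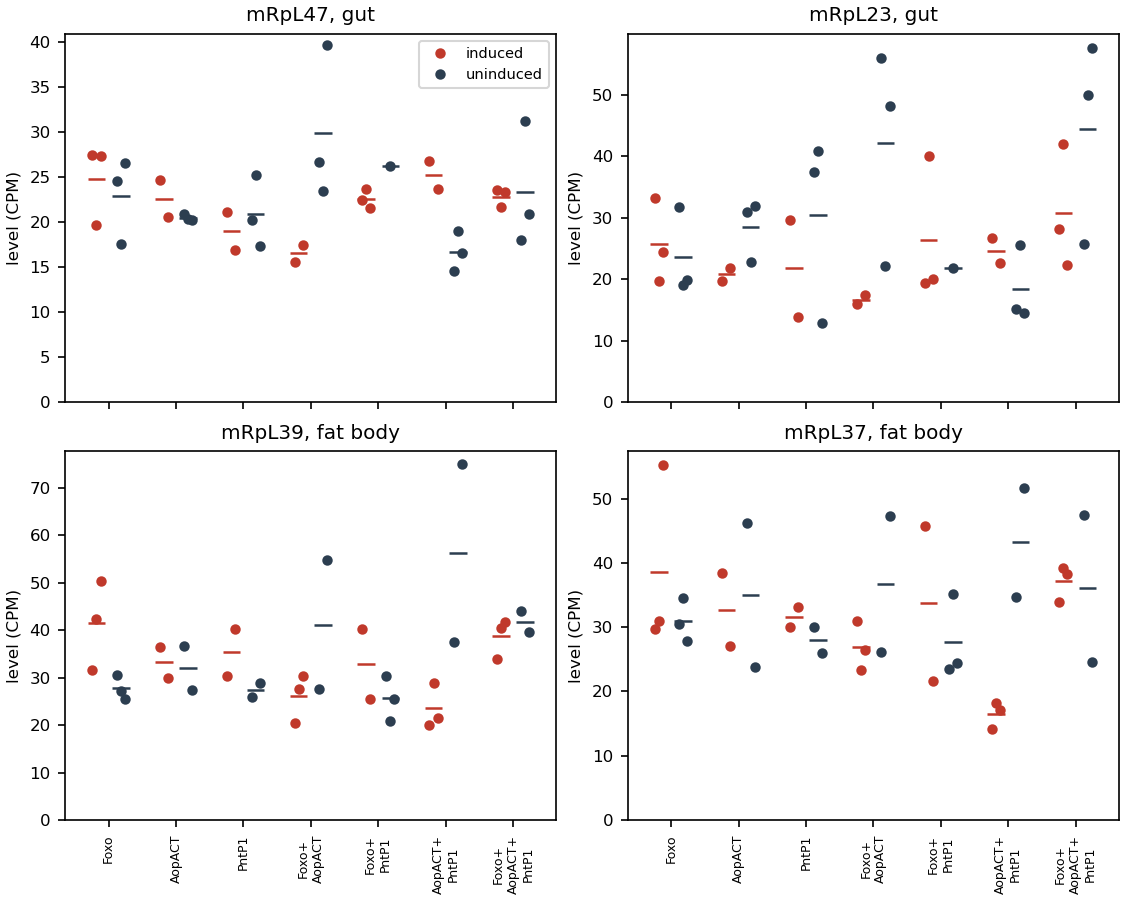
CPM of mRpL47 and mRpL23 in every gut library and of mRpL39 and mRpL37 in every fat body library, by genotype, induced left of uninduced, with a line at each group mean. For mRpL37, induced AopACT+PntP1 fat bodies lie between 14.1 and 18.3 CPM, below the uninduced libraries at 34.8 and 51.7 CPM.

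Markers of other cells moved with this comparison. Fat body markers summed to 125642, 276467 and 205395 CPM in induced AopACT+PntP1 fat bodies, against 70019 and 76670 CPM in uninduced ones, with a median log2 fold change of 1.96 and 1 of 7 called higher. Ovary and follicle markers, all 9 of which were detected, summed to 252, 629 and 101 CPM in induced fat bodies, against 452 and 3477 CPM in uninduced ones (median -2.36, 0 of 9 called). Muscle markers summed to between 3423 and 5869 CPM in induced and between 2672 and 3111 CPM in uninduced fat bodies. Over all 34 fat body libraries, the summed log2 level of the mitoribosomal genes had a Pearson r of 0.447 and a Spearman rho of 0.479 with the ovary markers, as a description of libraries that share genotypes and blocks. Within blocks r was 0.531 in A, -0.188 in C and 0.615 in D, and without the 2 libraries furthest from the median it was 0.443. With the fat body markers r was -0.421 and rho -0.486, and within blocks r was 0.00406 in A, -0.364 in C and -0.834 in D. The part of these cells in the mitoribosomal levels was not tested.

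Related genes in the AopACT+PntP1 fat body did not all go along. Respiratory chain genes had a median log2 fold change of -0.02 and cytosolic ribosomal proteins of -0.12, while mitochondrial tRNA synthetases stood at -0.41, maintenance genes of mitochondrial DNA and RNA at -0.22 and translation factors at -0.19. None of these lists had a called gene. The other mitoribosomal genes lay with the members: bonsai had 29.0, 32.8 and 31.8 CPM in induced fat bodies, against 46.9 and 66.0 CPM in uninduced ones (-0.91 ± 0.28, edgeR adjusted p = 0.137), and tko had a log2 fold change of -0.69 ± 0.30 (edgeR adjusted p = 0.189). Ets97D had 8.19, 14.5 and 9.03 CPM in induced fat bodies, against 22.8 and 38.0 CPM in uninduced ones, with no overlap (-1.49 ± 0.43, edgeR adjusted p = 0.133). For srl, which had 248, 108 and 46.0 CPM in induced fat bodies, against 239.9 and 314 CPM in uninduced ones, the groups overlapped and the log2 fold change was -1.18 ± 0.60 (edgeR adjusted p = 0.233). The single-stranded DNA binding protein of mitochondria, mtSSB, stood at -1.68 ± 0.57 (edgeR adjusted p = 0.144).

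**Figure D4:**
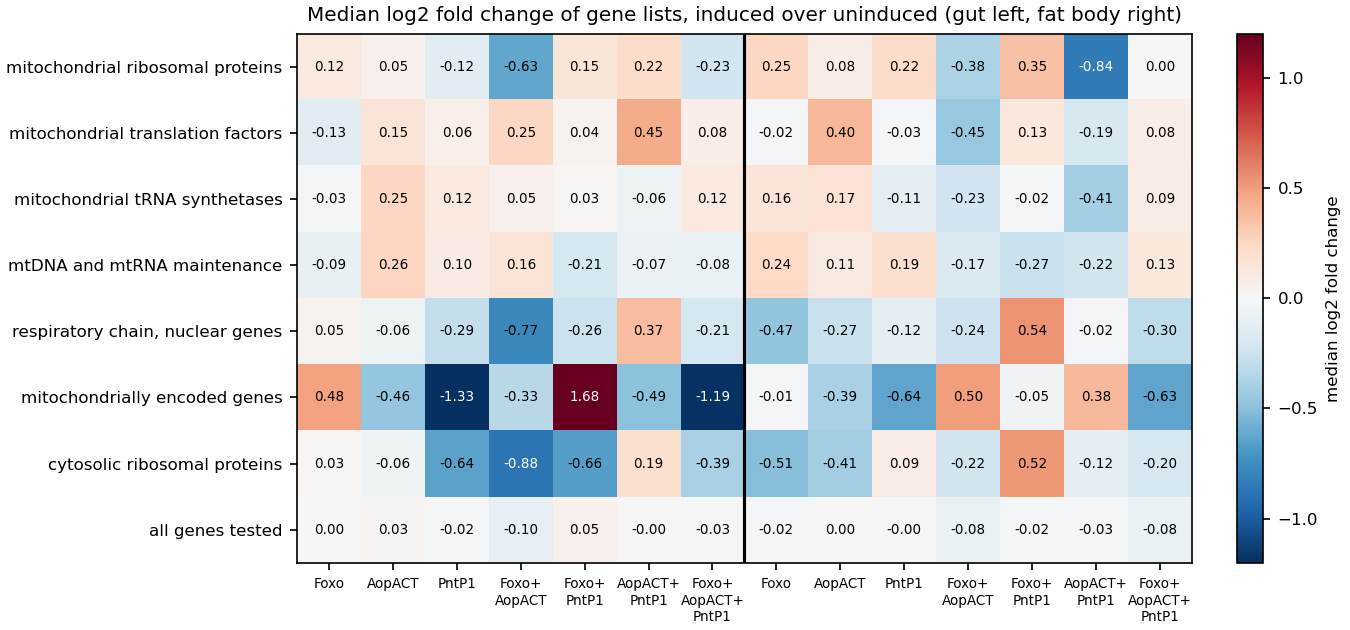
Median log2 fold change, induced over uninduced, of the 72 genes and of related gene lists in each genotype. Gut columns are left and fat body columns right of a line. The mitoribosomal median is -0.63 in Foxo+AopACT guts beside -0.77 for the respiratory chain, and -0.84 in AopACT+PntP1 fat bodies beside -0.02 for the respiratory chain.

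In the gut, the AopACT+PntP1 genotype had the opposite sign. Of 72 log2 fold changes 60 were positive with a median of 0.22 against 0.00 over all genes, and 1 gene (1.39%) had an unadjusted p under 0.05, against 6.97% of all genes, with 0 called by edgeR, DESeq2 or limma voom. Summed levels were 1853 and 1900 CPM in induced guts, against 1433, 1771 and 1665 CPM in uninduced guts, a ratio of 1.16 without overlap, which was 1.05 within block C and 1.14 within block D. In 24 of 72 genes every induced library was above every uninduced one, against 11.8% of all genes. The example with the lowest p was again mRpL47, with 26.8 and 23.7 CPM in induced guts, against 14.6, 19.0 and 16.6 CPM in uninduced guts (log2 fold change 0.56 ± 0.26, edgeR adjusted p = 0.675). For mRpS14, 20.5 and 21.1 CPM in induced guts stood against 6.36, 11.2 and 20.2 CPM in uninduced guts (0.69 ± 0.34, edgeR adjusted p = 0.728). Respiratory chain genes leaned the same way, with 61 of 68 log2 fold changes positive and 0 called. Ovary and follicle markers did so too, with 42.6 and 362 CPM in induced guts, against between 4.45 and 55.9 CPM in uninduced guts (9 of 9 positive, median 2.55, 0 called), and oenocyte markers went the other way (4 of 4 negative, median -0.82), and their part was not tested. Between the tissues, 59 genes had a positive log2 fold change in gut and a negative one in fat body in this genotype; a test of that difference was not run.

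In Foxo+AopACT flies both tissues had a negative median. Of 72 fat body log2 fold changes 69 were negative, with a median of -0.38 against -0.08 over all genes, and 5 genes (6.94%) had an unadjusted p under 0.05, against 2.32% of all genes (0 called by edgeR, DESeq2 or limma voom). Summed levels were 1379, 1449 and 1674 CPM in induced fat bodies, against 1544 and 2201 CPM in uninduced ones, so that the groups overlapped. The ratio of the means was 0.801, and 0.893 within block A and 0.761 within block D. Every induced library was below every uninduced one in 14 of 72 genes, against 4.74% of all genes. The lowest p was that of mRpS26, a small-subunit protein, with 20.9, 30.0 and 33.1 CPM in induced and 34.0 and 51.1 CPM in uninduced fat bodies (-0.65 ± 0.26, edgeR adjusted p = 1). The large-subunit gene mRpL41 had 5.00, 6.00 and 5.52 CPM in induced and 10.2 and 10.9 CPM in uninduced fat bodies (-0.999 ± 0.40, edgeR adjusted p = 1). Without uninduced replicate 2 the fat body median was -0.11. In 63 of 72 genes the log2 fold change was negative in both tissues. Ovary and follicle markers went along, between 289 and 1283 CPM in induced and between 915 and 1624 CPM in uninduced fat bodies (9 of 9 negative, 0 called), and their part was not tested. Other lists shared this sign in the fat body, with 16 of 16 mitochondrial tRNA synthetases, 60 of 67 respiratory chain genes and 75 of 85 cytosolic ribosomal proteins negative and 0 called.

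The design allows Foxo+AopACT to be set against the sum of the separate Foxo and AopACT responses, with the same Foxo+AopACT libraries as above. In the gut 70 of 72 genes lay below that sum, with a median departure of -0.78 against -0.12 over all genes, and 10 genes (13.9%) had an unadjusted p under 0.05, against 4.67% of all genes. No gene was called by edgeR (background 0%), DESeq2 or limma voom. The lowest p-values were those of mRpS2 (-1.28 ± 0.47) and mRpL4 (-1.09 ± 0.41), both with an edgeR adjusted p of 0.918. Fat bodies had 62 of 72 genes below the sum, with a median of -0.78 against -0.02 over all genes, and 10 (13.9%) had an unadjusted p under 0.05, against 17.2% of all genes. Here 0 were called by edgeR, against a background of 0.0719%, 1 by DESeq2 (mRpL15), which called 3.79% of all genes, and 0 by limma voom. With library totals the gut median was -0.55 against 0.08 over all genes, and the fat body median -1.69 against -0.97. For mRpL15 the departure was -2.02 ± 0.59 (edgeR adjusted p = 0.221) and for mRpL12 -1.71 ± 0.63 (edgeR adjusted p = 0.249). Without uninduced AopACT replicate 1 in the fat body 8 genes were called by edgeR, and without uninduced Foxo+AopACT replicate 1 there were 9, shares of 11.1% and 12.5% in fits that called 15.5% and 21.6% of all genes.

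The single transgenes had small median shifts in the gut. Foxo had a median log2 fold change of 0.12 against 0.00 over all genes (59 of 72 positive), AopACT of 0.05 against 0.03 (46 positive) and PntP1 of -0.12 against -0.02 (50 negative). The numbers with an unadjusted p under 0.05 were 0, 0 and 1 in that order, against 4.68%, 4.01% and 10.9% of all genes. None was called by edgeR or DESeq2, while limma voom called mRpL4 for PntP1, where it called 14.7% of all genes. With library totals the PntP1 median was 0.24 against 0.32 over all genes, so that its sign changed. On the TMM scale, leaving out single libraries also changed signs. The Foxo median was -0.06 without induced replicate 1 and 0.31 without uninduced replicate 1. The AopACT median was -0.0037 without uninduced replicate 2 and 0.15 without induced replicate 1. The PntP1 median was -0.35 without induced replicate 1 and 0.09 without uninduced replicate 2. For mRpL4, whose bacterial relative lines the exit tunnel, PntP1 induced guts had 16.9 and 15.6 CPM, against 27.3, 21.7 and 25.5 CPM in uninduced guts. These groups were apart, and every induced library was below every uninduced one in 3 of 72 genes, against 11.8% of all genes. The log2 fold change of mRpL4 was -0.62 ± 0.25 (edgeR adjusted p = 0.301). The same gene had 34.9, 23.0 and 34.8 CPM in Foxo induced guts, against 25.1, 22.0 and 24.2 CPM in uninduced guts (0.38 ± 0.22). For AopACT, mRpS29, the GTP-binding protein also known as DAP3 in mammals, had 42.9 and 31.8 CPM in induced guts, against 27.6, 24.3 and 33.8 CPM in uninduced guts (0.44 ± 0.29). The value for mRpL2 in the same comparison rested on 1 library, with 26.2 and 7.40 CPM in induced guts, against 11.7, 8.58 and 12.1 CPM in uninduced guts (0.69 ± 0.47), and it was -0.65 without induced replicate 1. Other members named by the same rule were mRpL15 for Foxo (0.43 ± 0.24) and mRpS17 for PntP1 (-0.53 ± 0.34).

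In the fat body the single transgenes had positive medians without a call. Median log2 fold changes were 0.25 for Foxo against -0.02 over all genes, 0.08 for AopACT against 0.00, and 0.22 for PntP1 against 0.00. Unadjusted p-values under 0.05 were found for 3 (4.17%), 0 and 0 genes in that order, against 21.8%, 4.88% and 2.17% of all genes. DESeq2 called 0, while limma voom called 7 (9.72%) for Foxo, against 13.1% of all genes. The sign of the AopACT median rested on single libraries. It was -0.16 without uninduced replicate 2 and 0.37 without uninduced replicate 1. Foxo induced fat bodies had 22.9, 28.3 and 43.8 CPM of mRpS10, against 21.2, 16.3 and 14.3 CPM in uninduced ones (0.88 ± 0.37, edgeR adjusted p = 0.203). They had 23.2, 31.4 and 36.6 CPM of mRpL15, against 20.3, 19.1 and 16.3 CPM in uninduced ones (0.70 ± 0.30, edgeR adjusted p = 0.205). For both genes every induced library was above every uninduced one, a separation found in 13 of 72 genes and in 13% of all genes. The summed level did not keep that separation within blocks, where the ratio of induced to uninduced Foxo fat bodies was 0.91 in A, 1.01 in C and 1.64 in D. Fat body markers moved the other way, between 70680 and 136064 CPM in induced and between 151735 and 272417 CPM in uninduced Foxo fat bodies. Ovary and follicle markers summed to between 402 and 2590 CPM in induced and between 241 and 1047 CPM in uninduced Foxo fat bodies, with a median log2 fold change of 1.58, and the part of either in the values was not tested. In AopACT fat bodies mRpL4 had 28.8 and 22.3 CPM when induced, against 14.9 and 15.1 CPM uninduced (0.57 ± 0.30), and mRpL48 had 7.74 and 11.9 CPM, against 4.77 and 5.97 CPM (0.73 ± 0.39). Ovary markers summed to 1989 and 2532 CPM in induced AopACT fat bodies, against 25.1 and 763 CPM in uninduced ones, and fat body markers to 67233 and 71216 CPM, against 74224 and 336243 CPM, and their part was likewise not tested. In PntP1 fat bodies mRpL14 stood at 0.75 ± 0.43 and mRpS26 at 0.48 ± 0.30.

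**Figure D5:**
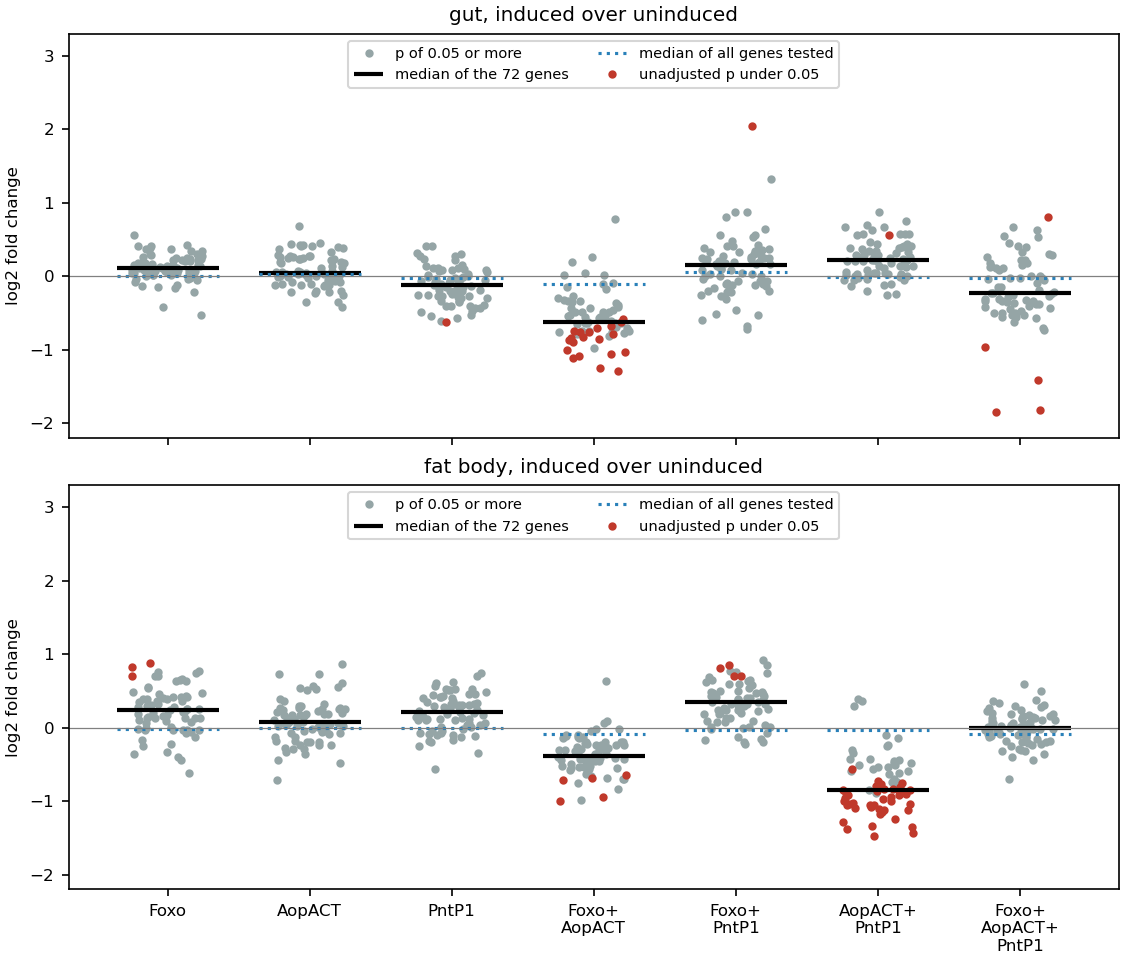
Log2 fold change, induced over uninduced, of each of the 72 genes in the 7 genotypes of gut and fat body, with the median of the genes and that of all genes tested. The points centre on -0.63 in Foxo+AopACT guts and -0.84 in AopACT+PntP1 fat bodies, and between -0.38 and 0.35 in the other groups, all on the TMM scale.

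Foxo+PntP1 had positive medians, 0.15 in the gut against 0.05 over all genes, and 0.35 in the fat body against -0.02. The sign in the gut rested on induced replicate 2, a library rich in mitochondrial transcripts, without which the gut median was -0.09. Unadjusted p-values under 0.05 were found for 1 gut gene (1.39%, against 9.46% of all genes) and 4 fat body genes (5.56%, against 4.54%), and 0 were called by edgeR, DESeq2 or limma voom. In the fat body mRpS26 had 52.2 and 38.0 CPM in induced libraries, against 20.9, 24.1 and 31.3 CPM in uninduced ones, which did not overlap (0.70 ± 0.26, edgeR adjusted p = 0.833). Every induced library was above every uninduced one in 15 of 72 genes, against 14.6% of all genes. For mRpL19, the values were 37.5 and 23.6 CPM in induced and 18.3, 13.7 and 17.0 CPM in uninduced fat bodies (0.81 ± 0.30, edgeR adjusted p = 0.833). Induced replicate 2 set this direction: summed levels were 2477 and 1511 CPM in induced fat bodies, against levels between 1433 and 1564 CPM in uninduced ones, and without the higher library the median was -0.11. Without the uninduced library whose pnt goes against its label the median was 0.47, again with 0 called by edgeR. In the gut, with its single uninduced library, mRpL33 had 13.7, 47.4 and 11.4 CPM in induced and 5.98 CPM in uninduced guts (2.04 ± 0.92, edgeR adjusted p = 0.471), and mRpS31 had 16.8, 11.2 and 14.9 CPM in induced and 22.8 CPM in uninduced guts (-0.68 ± 0.35, edgeR adjusted p = 0.585).

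With all 3 transgenes the fat body median was 0.00 (36 genes positive, 36 negative, 0 at an unadjusted p under 0.05 against 2.47% of all genes, and 0 called by edgeR, DESeq2 or limma voom), with mRpS29 (0.50 ± 0.31) and mRpL54 (0.59 ± 0.43) lowest in p. In the gut the median was -0.23 against -0.03 over all genes, 48 of 72 were negative and 5 (6.94%) had an unadjusted p under 0.05, against 10.9% of all genes. With library totals the gut median was 0.08 against 0.28 over all genes. Here 0 were called by edgeR, and mRpS21 was called by DESeq2 and limma voom, which called 3.12% and 3.07% of all genes. For mRpS21, a protein of the small subunit whose exons overlap another gene over 48.0% of their bases, induced guts had 8.18, 15.2 and 6.25 CPM, against 7.29, 13.2 and 95.2 CPM in uninduced guts (-1.82 ± 0.65, edgeR adjusted p = 0.253). For mRpL33, induced guts had 15.4, 16.9 and 13.8 CPM, against 13.2, 21.1 and 91.5 CPM in uninduced guts (-1.41 ± 0.56, edgeR adjusted p = 0.327). Both values rested on uninduced replicate 3, since the other uninduced libraries lay within or next to the induced range. Without that library mRpS21 had a log2 fold change of 0.0257 and the median of the 72 genes was 0.01.

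That library, and induced Foxo+PntP1 replicate 2, are the guts with 24.9% of counts from the mitochondrial genome, and in both the short members stood out. In Foxo+AopACT+PntP1 uninduced replicate 3, levels over the median of the other guts ranged from 0.394 to 9.43 with a median of 1.42, and 15 of 72 were above 2. The highest were mRpL34 (9.43), mRpS21 (8.76) and mRpL33 (7.64), whose exons sum to 327, 475 and 349 bases. The 37 shorter genes had a median ratio of 1.77 and the 35 longer ones of 0.872, a rank correlation with length of -0.70 across genes, which are not independent replicates. In Foxo+PntP1 induced replicate 2 the ratios ranged from 0.236 to 3.96, with a median of 1.55 in the shorter and 0.932 in the longer genes and a rank correlation of -0.583. These 3 genes and mRpL18, chosen after their values were seen, had the widest spread relative to their means among the uninduced guts. For mRpL34 it was 6.90 ± 9.76 CPM, for mRpS21 17.6 ± 21.3, for mRpL33 18.8 ± 20.2 and for mRpL18 36.2 ± 24.7 CPM (SD, n = 19). In induced over uninduced Foxo+AopACT+PntP1 guts, fold changes went with length in the same way, with a median of -0.37 in the shorter and 0.11 in the longer genes. Over all 36 guts, the summed log2 level of the 72 genes had a Pearson r of 0.548 and a Spearman rho of 0.575 with that of the mitochondrially encoded transcripts, and r was 0.227 in block A, 0.562 in C, 0.771 in D and 0.453 without the 2 libraries furthest from the median. The part of the shift in counts towards mitochondrial transcripts and short transcripts was not tested.

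Averaged over the 7 genotypes, the median shifts were near 0. The gut mean response had a median of -0.05 with 47 of 72 negative, and with library totals of 0.19 against 0.24 over all genes, where 19 genes (26.4%) were called higher by edgeR, against 29.1% of all genes called. On the TMM scale no gene had an unadjusted p under 0.05 with edgeR, against 19.2% of all genes. There edgeR called 0, against 11.1% of all genes, and DESeq2 with its own scaling also called 0. By contrast, limma voom called 4 (mRpS35, mRpL1, mRpS24 and mRpL48), or 5.56%, against 22.6% of all genes. The lowest p-values were those of mRpS24 (-0.27 ± 0.15, edgeR adjusted p = 0.336) and mRpL48 (0.28 ± 0.16, edgeR adjusted p = 0.361). In the same comparison 44 of 85 cytosolic ribosomal proteins were called lower, among them RpL27 (-0.54 ± 0.11, edgeR adjusted p = 0.00148), and 3 of 68 respiratory chain genes, while with library totals 9 cytosolic ribosomal proteins were called lower and 2 respiratory chain genes higher. The fat body mean response had a median of -0.03 (0.04 with library totals), with 0 genes at an unadjusted p under 0.05, against 3.79% of all genes, and 0 called by edgeR, DESeq2 or limma voom (background 0.277%). There mRpL23 stood at -0.23 ± 0.14 and mRpS21 at -0.31 ± 0.20.

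The difference in response between genotypes with and without PntP1 also had medians near 0. In the gut the median was 0.13 with 54 of 72 positive, 1 gene at an unadjusted p under 0.05, against 11.5% of all genes (mRpS11, 0.65 ± 0.31, edgeR adjusted p = 0.408) and 0 called by edgeR, DESeq2 or limma voom (background 4.25%), and mRpL54 stood at 0.59 ± 0.35. The fat body median was -0.04, with 0 genes at an unadjusted p under 0.05, against 6.14% of all genes, and 0 called by the same tools (background 0.452%), and the lowest p-values were those of mRpL27 (0.53 ± 0.33) and mRpS16 (-0.43 ± 0.33). A test of whether the responses differed in any way among the 7 genotypes called 0 of 72 in the gut with edgeR (background 2.45%), 0 with DESeq2 and 12 (16.7%) with limma voom, which called 17.3% of all genes, and 1 had an unadjusted p under 0.05, against 8.09% of all genes (mRpL47, edgeR adjusted p = 0.601). The gene next in order was mRpL4 (edgeR adjusted p = 0.699). In the fat body 17 of 72 (23.6%) had an unadjusted p under 0.05, against 13.1% of all genes, with 0 called by edgeR (background 0.113%), 6 (8.33%) by DESeq2, which called 5.69% of all genes, and 0 by limma voom. The lowest were mRpL15 (edgeR adjusted p = 0.219) and mRpS26 (edgeR adjusted p = 0.228).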

How the data were processed

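Polyadenylated RNA of pooled guts and abdominal fat bodies was analysed from the count tables the authors deposited, 1 per tissue. Before deposit, duplicates were removed by the authors using molecular identifiers (Je), reads were aligned to release 6 of the fly genome (HISAT2) and counted per gene (featureCounts), and genes without counts were left out; the submitters' notes also name SAMtools and DESeq2. The deposited values are raw counts per gene and library. Of 73 labelled samples, 3 lack a count column and were not analysed, and the authors' variance-stabilised tables were not used. Groups came from the labels and blocks (A, C, D) from the tables. Coordinates and exon lengths are from the Ensembl BDGP6 annotation.

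Each tissue was fitted with edgeR 4.0.16 (R 4.3.3): TMM scaling, filterByExpr with a minimum count of 10 (9270 gut and 9734 fat body genes kept), 14 groups plus block, quasi-likelihood tests, and Benjamini-Hochberg adjustment over all genes tested. A gene was called at an adjusted p under 0.1. Uninduced gut and fat body were compared in 1 joint fit of 35 libraries (9313 genes) with genotype and block. Fold changes are log2. CPM are TMM-scaled counts relative to library size, for the tissue comparison scaled jointly. The members, the gene lists and the tests were chosen with earlier results of these data known. Named members were, per comparison, the called genes of largest change or else the 2 of lowest p, plus the extremes of level. Alternatives were DESeq2 1.42.0, limma 3.58.1 (voom with quality weights), RLE scaling, no filter, no replicate block, each genotype alone, sets of libraries or the mitochondrial transcripts left out, and each library left out. Scaling to library totals without TMM, with and without the mitochondrially encoded genes, was added after seeing the data. The fit was tested on simulated counts with changed genes. At a true log2 change of 1, edgeR recovered 11% in gut Foxo+AopACT, 1% in fat body AopACT+PntP1 and 92% in the tissue comparison. At a true log2 change of 2 it recovered 62%, 62% and 100% in that order. In the simulated tissue comparison all unchanged genes had equal expected levels in both tissues. In the real one 75.5% of genes were called. The 92% and 100% therefore do not bear on the choice of scaling. Replicates were compared by chi-square per degree of freedom (lowest 11.3 in gut, 10.1 in fat body), so no pair of libraries was treated as a copy. Counts are of reads after removal of duplicates, and depth limits their precision.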

Additional observations from a re-analysis of the deposited data

Results flagged for a closer look

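The summed level of the 72 genes in AopACT+PntP1 flies lay on opposite sides of the uninduced level in the tissues. In the gut the ratio of induced to uninduced means was 1.16, with both induced libraries above all uninduced ones. In the fat body the ratio was 0.608, with all 3 induced libraries below both uninduced ones. The difference between the tissues was not tested, and the summed fat body markers did not overlap between the same fat body groups, while the ovary markers did. With library totals as the scale, guts had a median log2 fold change of 0.32 (0.09 over all genes) and fat bodies one of -1.26 (-0.44 over all genes).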

How the results depend on the processing

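The tissue difference depended on the scaling. With TMM or other scaling by the bulk of genes the positive median held in every fit run, at 0.44 to 0.54, with 53 to 58 of 72 genes called. Those fits called between 72.2% and 78.3% of all genes. There were 55 calls without the replicate block and 55 with library number as the replicate block. With single libraries left out there were 51 to 62, against 73.2% to 75.7% of all genes. With library totals, chosen after seeing the data, 16 genes were called and the median was 0.06, and 17 and 0.07 with the mitochondrially encoded genes removed as well. The 5 smallest called differences changed sign there: mRpS23 (-0.19 and -0.18), mRpL12 (-0.20 and -0.20), mRpS26 (-0.16 and -0.15), mRpL30 (-0.16 and -0.15) and mRpL2 (-0.0483 and -0.0427). The same scalings gave 19 and 18 calls in the gut mean response, against 29.1% and 31% of all genes. They gave 0 in the other induction comparisons, where between 0% and 8.01% of all genes were called. Deviations from the joint fit in same-numbered gut and fat body libraries had correlations from -0.568 to 0.0899 (13 pairs). In that fit the deviations of libraries of the same genotype cancel out, which pulls such correlations downward. They therefore cannot tell whether same-numbered libraries vary together. Without the replicate block 0 genes were called in each induction comparison. Counts of 0 in induction comparisons depended on the tool. With DESeq2 1 gene was called in gut Foxo+AopACT, 1 in gut Foxo+AopACT+PntP1, 15 in fat body AopACT+PntP1, 1 in the fat body departure from additivity and 6 in the fat body interaction. With limma voom 1 was called in gut PntP1, 41 in gut Foxo+AopACT, 1 in gut Foxo+AopACT+PntP1, 4 in the gut mean response, 12 in the gut interaction and 7 in fat body Foxo. With single libraries left out, calls ranged from 0 to 5 in gut Foxo+AopACT, 0 to 3 in gut Foxo+AopACT+PntP1 and 0 to 1 in fat body Foxo. They ranged from 0 to 14 in fat body AopACT+PntP1, 0 to 9 in the fat body departure from additivity and 0 to 4 in the fat body interaction. In the other induction comparisons they were 0. The 3 calls in gut Foxo+AopACT+PntP1 were 4.17% of the 72, against 3.64% of all genes. The 1 call in fat body Foxo was 1.39%, against 13.7% of all genes. The 4 calls in the fat body interaction were 5.56%, against 1.8% of all genes. Median shifts with TMM-like scaling ranged from -0.74 to -0.36 in gut Foxo+AopACT and from -0.97 to -0.52 in fat body AopACT+PntP1, and with library totals they were -0.18 and -1.26. Gut Foxo+PntP1 has no value without its single uninduced library. In induction comparisons 3 values of named genes changed sign: mRpL2 in gut AopACT (-0.65 without induced replicate 1, up to 1.49 without induced replicate 2) and mRpS21 in gut Foxo+AopACT+PntP1 (from -2.40 without uninduced replicate 1 to 0.0257 without uninduced replicate 3, and 0.0034 without the 2 libraries rich in mitochondrial transcripts). The causes were not tested.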
